A study of Homo sapiens with 6 samples.

Results

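The long non-coding RNAs that host small nucleolar RNAs (snoRNAs) were followed through a pull-down of the lncRNA CyCoNP. They were taken by name as the genes whose symbol is SNHG followed by a number, together with GAS5, ZFAS1, DANCR and EPB41L4A-AS1. The rule found 32 genes among the 60676 of the count table. Of these, 27 reached a total of 10 counts over the 6 libraries and were tested, SNHG28 and SNHG31 had 1 count each, and SNHG18, SNHG22 and SNHG27 had 0. A mean of at least 20 counts in input was reached by 19, called well counted here. The cells were SK-N-BE, a human neuroblastoma line, and every group had been kept for 1.5 days in differentiation medium with 10 uM retinoic acid. RNA from their total extract formed the input group. CyCoNP PD was the RNA retrieved from such extract with biotinylated antisense probes against CyCoNP (LINC02381), and LacZ PD the RNA retrieved with probes against a bacterial gene that human cells lack. Each group had 2 Nanopore cDNA libraries, numbered 1 and 2, all of this single line. The study calls the sequenced pull-down samples biological duplicates and describes the input as a part of the total extract that was set aside. No source used here says which culture or extract each numbered library came from. The p-values measure the spread between these libraries. The comparison served to place CyCoNP beside other lncRNAs that reach the cytoplasm.

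An snoRNA host gene is transcribed as a whole, and the snoRNAs are cut out of its introns. Box C/D snoRNAs guide methylation of ribosomal RNA and box H/ACA snoRNAs guide pseudouridylation, while the related scaRNAs act on spliceosomal RNAs in Cajal bodies. The spliced exons are exported, and for several hosts, GAS5 above all, they are bound by ribosomes over short reading frames and destroyed by nonsense-mediated decay. Many hosts share with the mRNAs of ribosomal proteins a 5′ terminal oligopyrimidine (TOP) start, a C at the cap followed by a run of C and T, through which growth signalling controls translation. In neuroblastoma and other tumours several of these lncRNAs have been studied for their abundance.

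The start of the RNA is shown because the TOP start is the feature that would put a host in that class. RefSeq promoters (GRCh38.p14) were given for 23 of the 27 tested hosts. A C at the annotated start followed by at least 4 C or T was present in 6 of the 23 (26.1%). The same feature stood at the start of 5.44% of the promoters of tested genes, of 60.3% of those of ribosomal protein genes and of 77.8% of those of other TOP mRNAs. In a window from 10 bases before to 10 bases after the start, such a run was found in 60.9% of the hosts and in 33.5% of the promoters of tested genes. The search read only the strand of the gene. The 6 hosts with the feature are given first, each as 30 bases of which the first 10 lie before the start, and the capitals mark the run. GAS5 and SNHG14 follow for contrast, without capitals.
SNHG5: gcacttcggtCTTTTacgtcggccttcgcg
ZFAS1: gccattcgttCTTTCgcgtctgcggtgccc
SNHG32: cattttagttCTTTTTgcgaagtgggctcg
SNHG19: ccgcccctgtCTTTTCggggtcgagtccga
SNHG4: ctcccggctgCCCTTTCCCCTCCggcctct
SNHG12: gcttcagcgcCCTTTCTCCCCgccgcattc
GAS5: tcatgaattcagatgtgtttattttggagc
SNHG14: gtcctcctgcgccgacctcgaatgcggtcc
These windows lie at chr6:85678714-85678743 (minus strand), chr20:49278632-49278661 (plus), chr6:31834906-31834935 (plus), chr16:2155339-2155368 (minus), chr5:139274091-139274120 (plus), chr1:28581854-28581883 (minus), chr1:173869026-173869055 (minus) and chr15:24823598-24823627 (plus). The run was 5 bases long in SNHG5 and ZFAS1, 6 in SNHG32 and SNHG19, 11 in SNHG12 and 13 in SNHG4. The RefSeq start and the outer end of the GENCODE v44 gene lay within 10 bases of each other in 4 of the 23 hosts. Of the 8 shown this held for SNHG4 alone. The RefSeq start lay 199 bases inside the GENCODE gene in SNHG5, 464 in ZFAS1, 308 in SNHG32, 47 in SNHG19 and 1259 in SNHG12. In GAS5 and SNHG14 it lay upstream of the GENCODE gene, which begins at chr1:173868882 and chr15:24978583. These windows say nothing of a start used elsewhere. Whether a host is cytoplasmic could not be checked, since the extract was not fractionated.

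The probes were compared with the hosts because a stretch complementary to a probe is the most direct route for an RNA into the pull-down. The 22 CyCoNP probes have 20 bases each. The longest exact complement between any probe and a tested host had 13 bases, in SNHG10, SNHG14 and SNHG26, against 20 in CyCoNP. The median of the longest stretch was 10 bases for the tested hosts and 10 for all tested genes, and 37.0% of the hosts and 32.9% of the genes held 11 bases or more. The probes with the 13-base stretches are given 5′ to 3′, with the bases complementary to the host in capitals.
SNHG10, CyCoNP PD probe 20: ccaccTCAACAAACCTTTac
SNHG14, CyCoNP PD probe 12: cccaacATGGGGGAGAAAAa
SNHG14, CyCoNP PD probe 2: GGGAACTGGAGGGagaggtc
SNHG26, CyCoNP PD probe 1: tggCGAAAAGGGAGGGtgaa
The study also examined miR-4492, a microRNA with predicted sites in CyCoNP. It reports that blocking miR-4492 raised a luciferase reporter carrying CyCoNP, but not one lacking the sites. It also reports that the CyCoNP pull-down recovered miR-4492. The mature sequence of miR-4492 in RefSeq is given with its seed (bases 2 to 8) in capitals.
hsa-miR-4492: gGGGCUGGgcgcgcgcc
The match to this seed, CCAGCCC, occurred in the main transcript of 7 of the 27 tested hosts (25.9%) and of 40.8% of all tested genes. Main transcripts had a median length of 1316 bases in these hosts and 2888.5 in all tested genes. A longer transcript has more places for a match, and the part of length in these shares was not tested. SNHG14 had 11 such matches in a transcript of 7005 bases and SNHG7 had 6 in 2357 bases. The other 5 hosts, EPB41L4A-AS1, SNHG10, SNHG3, SNHG8 and ZFAS1, had 1 each. The probe search above read all annotated transcripts, whereas these counts read the main one only. In some other transcript there were up to 3 matches in SNHG29, 2 in SNHG17 and SNHG10, and 1 in SNHG20 and SNHG26. Such a match is a description of letters, not a site shown to be bound.

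The libraries held between 18870 and 1512148 counts, and LacZ PD 1 was the shallowest. A level of 3 counts corresponded to 159 CPM (counts scaled to a common library total) in LacZ PD 1, to 21.4 CPM in LacZ PD 2 and to at most 5.83 CPM elsewhere. In LacZ PD 1, 14 of the 32 hosts had 0 counts and 11 had 1 to 3. CyCoNP itself measured 27.9 and 49.2 CPM in input, 7729 and 6811 in CyCoNP PD, with 53.0 and 143 in LacZ PD on 1 and 20 counts. Both control libraries thus lay above both inputs, far below CyCoNP PD. Its log2 fold change in CyCoNP PD against input was 7.59 (SE 0.96, adjusted p = 0.0137, edgeR's quasi-likelihood test), with a 95% interval of 5.54 to 9.64. All 16 neuroblastoma and sympathoadrenal markers were tested, MYCN with 22 to 1425 counts. Of 13 markers of other cell types, PTPRC, CD3E, LYZ, HBB, PECAM1, VWF and KRT5 had 0 counts, while the collagen COL1A1 had 192, 186 and 4 counts in the libraries numbered 1 and 10, 3 and 1 in those numbered 2.

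The hosts together took nearly the same share of the 3 libraries numbered 1, and a larger share of every library numbered 2. The summed level was 3998 CPM in input 1, 4084 CPM in CyCoNP PD 1 and 4293 CPM in LacZ PD 1. In the libraries numbered 2 it was 7348, 6396 and 7672 CPM, in the same order. The 95% Wilson intervals of the libraries numbered 1 overlapped (3854 to 4146, 3983 to 4187 and 3455 to 5332 CPM), and all lay below those numbered 2 (7162 to 7538, 6182 to 6617 and 7229 to 8143 CPM). Among those numbered 2, the interval of CyCoNP PD 2 lay wholly below those of input 2 and LacZ PD 2, which overlapped. These intervals cover counting error only, since reads of PCR-amplified cDNA are not independent molecules. As group means, the hosts took 5673 ± 2369 CPM in input, 5240 ± 1635 CPM in CyCoNP PD and 5982 ± 2390 CPM in LacZ PD (SD, n = 2 each), and the groups overlapped. Within a number, CyCoNP PD held 1.02 and 0.871 times the share of input, and LacZ PD 1.07 and 1.04 times. Between the numbers, replicate 2 held 1.84 times the share of replicate 1 in input, 1.57 times in CyCoNP PD and 1.79 times in LacZ PD. CyCoNP PD 1 was deeper than CyCoNP PD 2, while in the other groups the library numbered 2 was deeper, and the part of depth in the difference was not tested. In bulk RNA, more cells expressing a gene and more RNA per cell cannot be told apart.

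**Figure D1:**
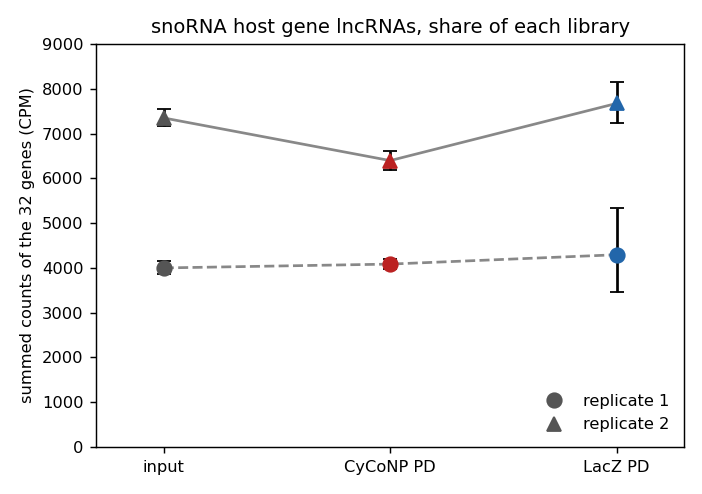
Summed counts of the 32 hosts in CPM (y axis) in input, CyCoNP PD and LacZ PD (x axis), with 95% Wilson intervals of counting error and lines that join libraries with the same replicate number. The line of replicate 2 runs from 7348 to 7672 CPM through 6396 and lies above that of replicate 1, at 3998, 4084 and 4293 CPM.

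The same few hosts supplied most of this share, in proportions that varied. SNHG5 supplied between 17.1% (CyCoNP PD 2) and 27.4% (input 1) of the host counts, and the 8 hosts with the most counts supplied between 77.5% and 81.9%. GAS5 supplied 6.86% of the host counts in input 1 and 13.6% in LacZ PD 1, and SNHG14 between 0.465% (LacZ PD 2) and 7.32% (input 1). Without SNHG5 the share was still 1.91, 1.66 and 1.69 times higher in replicate 2 in input, CyCoNP PD and LacZ PD. Without SNHG14 it was 1.93, 1.66 and 1.82 times higher, a set left out because its level went the other way.

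No host was called in the CyCoNP pull-down. Hosts and genes were called at a Benjamini-Hochberg adjusted p under 0.05 where the log2 fold change also exceeded 1 in size. Of all genes tested, edgeR called 0.119% higher and 0.00796% lower in CyCoNP PD than in input, so a count of 0 among 27 hosts is near that background. With an unadjusted p under 0.05 there were also 0 hosts in either direction, against 3.08% of genes higher and 2.32% lower. DESeq2 gave an adjusted p to 19 of the 27 hosts and to 4770 genes. It called 0 hosts, against 58 of those genes higher and 14 lower (0.462% and 0.111% of all tested). With the replicate number as a block, edgeR called 0 hosts against 1.53% and 0.732%. The log2 fold changes ran from -0.51 for SNHG5 to 1.12 for SNHG4, with a median of 0.09 over the hosts and -0.01 over all genes, and 14 of the 27 were above 0. All 27 of the 95% intervals included 0. The highest upper bound was 3.46, for SNHG4 with 0 to 15 counts a library, and among the well-counted hosts it was 2.13, for DANCR. Those bounds lay below the lower bound of CyCoNP, 5.54, but they do leave room for a change above the limit of 1. The hosts that lay above both inputs in both CyCoNP PD libraries were SNHG15 and SNHG4, which is 2 of 27 against 15.9% of all genes, and those that lay below were SNHG5 and SNHG26, against 20.3%.

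The control pull-down gave the same count. In LacZ PD against input, edgeR called 0 hosts and 0 genes (0% in each direction). At an unadjusted p under 0.05 there was 1 host, SNHG14, lower, against 6.28% of genes lower and 0.74% higher. DESeq2 gave an adjusted p to only 12 of the 27 hosts and 1359 genes, so that the other 15 hosts could not be called. It called 0 hosts, against 53 of those genes lower and 6 higher (0.422% and 0.0478% of all tested). The block in edgeR called 0 against 0.796% and 0.127%. The median of the 27 hosts was -0.14 and that of all genes -0.68. SNHG4 and SNHG11 had 0 counts in both LacZ PD libraries and 3 to 8 in each input, so they lay at or under the level of 3 counts there, and without them the median of the other 25 was -0.11. In CyCoNP PD against LacZ PD, edgeR called 0 hosts and 0 genes (0%). CyCoNP itself was thus not called there, so the count of 0 hosts says little. SNHG14 was higher at an unadjusted p under 0.05 in edgeR, against 4.74% of genes higher and 0.462% lower. There DESeq2 gave an adjusted p to 19 of the 27 hosts and to 3065 genes. It called 0 hosts, against 36 of those genes higher and 2 lower (0.287% and 0.0159% of all tested). The block in edgeR called 0 there, against 0.724% and 0.0478%. The median of the hosts was 0.12, or 0.08 without SNHG4 and SNHG11, and that of all genes 0.64. Both CyCoNP comparisons share the same CyCoNP PD libraries, and both input comparisons the same inputs.

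**Figure D2:**
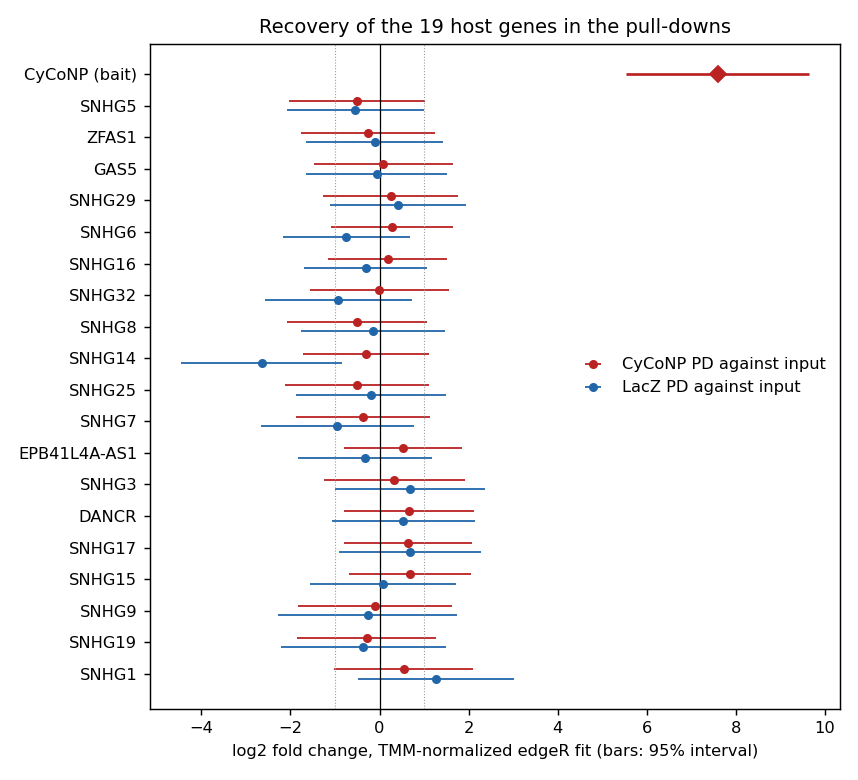
Log2 fold change (x axis) of the 19 well-counted hosts (y axis, by total counts) in CyCoNP PD and LacZ PD against input, with 95% intervals from edgeR. Dotted lines mark -1 and 1, and CyCoNP is shown at 7.59 for scale. Every interval of the CyCoNP pull-down includes 0, and SNHG14 in LacZ PD is the only host whose interval in either pull-down does not.

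Among the hosts of box C/D snoRNAs, the levels are given in CPM for replicates 1 and 2 of input, then CyCoNP PD, then LacZ PD. SNHG5, the host of SNORD50 snoRNAs, measured 1095 and 1808 CPM in input, 893 and 1093 in CyCoNP PD, with 795 and 1749 in LacZ PD. It was below both inputs in CyCoNP PD by a small margin, and its log2 fold change there was -0.51 (SE 0.71, adjusted p = 1.00). ZFAS1, which carries the SNORD12 family, measured 371 and 941 CPM in input, 452 and 631 in CyCoNP PD, with 583 and 1021 in LacZ PD. The libraries numbered 2 were the 3 highest, and the groups overlapped. SNHG29, the host of SNORD49A, SNORD49B and SNORD65, measured 297 and 590 CPM in input, 398 and 641 in CyCoNP PD, with 477 and 1028 in LacZ PD. Its order was the same, with the 3 libraries numbered 1 lowest.

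SNHG16, which holds SNORD1A, SNORD1B and SNORD1C, measured 340 and 427 CPM in input, 314 and 536 in CyCoNP PD, with 371 and 457 in LacZ PD, a narrow range in which replicate 2 was again higher in each group. SNHG6, the host of SNORD87, measured 332 and 511 CPM in input, 334 and 662 in CyCoNP PD, with 318 and 364 in LacZ PD. Its 2 LacZ PD libraries differed least. SNHG32, which holds SNORD48 and SNORD52, measured 224 and 389 CPM in input, 223 and 379 in CyCoNP PD, with 53.0 and 293 in LacZ PD, where the lower value is 1 count. Input and CyCoNP PD were almost equal within each number, and the log2 fold change was -0.0018 (SE 0.73). SNHG1, the host of SNORD22, SNORD25 and others, measured 16.7 and 39.1 CPM in input, 22.5 and 60.2 in CyCoNP PD, with 106 and 85.6 in LacZ PD. Both LacZ PD values exceeded all the others, on 2 and 12 counts, and the log2 fold change of 1.26 (SE 0.82, adjusted p = 0.764, edgeR) did not pass.

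SNHG14 stood apart from the others. It is the very long transcript of the imprinted region at chr15:24978583-25420336 that runs antisense over UBE3A in neurons, and the annotation lists 84 box C/D snoRNA genes inside it, mostly of the SNORD115 and SNORD116 arrays. It measured 293 and 205 CPM in input, 281 and 93.2 in CyCoNP PD, with 106 and 35.7 in LacZ PD, so here the library numbered 1 was the higher in every group. Both LacZ PD values lay below both inputs, on 2 and 5 counts. Against input, its log2 fold change in LacZ PD was -2.65 (SE 0.84, unadjusted p = 0.00706, adjusted p = 0.586, edgeR), and with the replicate block the adjusted p was 0.0523, within a range of 0.0508 to 0.814 over the 14 alternatives. In CyCoNP PD against LacZ PD it was 2.35 (SE 0.84, unadjusted p = 0.0142, adjusted p = 0.835), and in CyCoNP PD against input -0.30 (SE 0.66). The median of all genes was -0.68 in the former and 0.64 in the latter of the LacZ comparisons. The medians of 8 nuclear-retained lncRNAs were -2.08 and 2.08 in these, with 2 and 8 of them above 0. LacZ PD 1 had only 18870 counts. The part of that depth in the value was not tested.

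Among the hosts of box H/ACA snoRNAs, SNHG15, the host of SNORA9, was the well-counted host with the highest value in the CyCoNP pull-down. It measured 29.3 and 51.8 CPM in input, 59.5 and 68.0 in CyCoNP PD, with 53.0 and 57.1 in LacZ PD. Both CyCoNP PD values were the highest of the 6, and both LacZ PD values were above both inputs too. The log2 fold change in CyCoNP PD was 0.69 (SE 0.64, adjusted p = 1.00, edgeR). Libraries ordered in this way, with both CyCoNP PD values on top, were found for 6.55% of all genes and for 2 of the 27 hosts, the other being SNHG4.

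EPB41L4A-AS1, which holds SNORA13, measured 65.5 and 105 CPM in input, 98.5 and 142 in CyCoNP PD, with 106 and 85.6 in LacZ PD. DANCR, first known for holding back differentiation of progenitor cells and the host of SNORA26, measured 43.2 and 74.5 CPM in input, 63.5 and 120 in CyCoNP PD, with 53.0 and 136 in LacZ PD. SNHG17, which holds the SNORA71 snoRNAs, measured 40.4 and 68.2 CPM in input, 48.3 and 120 in CyCoNP PD, with 106 and 121 in LacZ PD. In all 3 of these hosts each CyCoNP PD library was above the input of the same number while the groups overlapped, and their log2 fold changes in CyCoNP PD were 0.53 (SE 0.61), 0.66 (SE 0.69) and 0.64 (SE 0.67).

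SNHG3, the host of the abundant SNORA73 snoRNAs that act in ribosomal RNA processing, measured 40.4 and 124 CPM in input, 68.1 and 140 in CyCoNP PD, with 106 and 214 in LacZ PD. SNHG8, which holds SNORA24, measured 194 and 424 CPM in input, 122 and 313 in CyCoNP PD, with 212 and 478 in LacZ PD. SNHG9, the short host of SNORA78, measured 33.4 and 78.3 CPM in input, 24.5 and 81.6 in CyCoNP PD, with 0 and 78.5 in LacZ PD. The 3 libraries numbered 2 exceeded the 3 numbered 1 in each of these, and in CyCoNP PD against input their log2 fold changes were 0.33 (SE 0.74), -0.50 (SE 0.73) and -0.10 (SE 0.81). The 9 tested hosts that hold box H/ACA snoRNAs only had a median log2 fold change of 0.53 in CyCoNP PD against input with 6 above 0, and the 10 with box C/D snoRNAs only a median of -0.06 with 4 above 0. No test was run on that difference.

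The remaining well-counted hosts carry both classes, other small RNAs, or none listed by GENCODE v44. GAS5 is the host with none listed, so the medians by class left it out. A missing entry does not show that GAS5 hosts none. GAS5, named for its rise in growth-arrested cells and the best studied of the TOP-type hosts, measured 274 and 870 CPM in input, 429 and 785 in CyCoNP PD, with 583 and 892 in LacZ PD. The pull-downs lay inside the range of the inputs for CyCoNP PD and reached slightly above it for LacZ PD. The log2 fold change in CyCoNP PD was 0.09 (SE 0.73). SNHG25, with SNORD104 and SNORA50C, measured 139 and 254 CPM in input, 93.9 and 181 in CyCoNP PD, with 53.0 and 314 in LacZ PD. SNHG7, with SNORA17A and SNORA17B, measured 91.9 and 221 CPM in input, 56.9 and 186 in CyCoNP PD, with 159 and 92.8 in LacZ PD. Both were lower in CyCoNP PD than in the input of the same number, with log2 fold changes of -0.50 (SE 0.75) and -0.37 (SE 0.71). SNHG19, the host of SNORD60, measured 34.8 and 65.7 CPM in input, 36.4 and 44.7 in CyCoNP PD, with 0 and 64.2 in LacZ PD, and its groups overlapped.

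The 8 tested hosts with fewer counts, SNHG4, SNHG10, SNHG11, SNHG12, SNHG20, SNHG21, SNHG26 and SNHG30, had totals of 16 to 61 counts over the 6 libraries. Their log2 fold changes in CyCoNP PD against input ran from -0.49 for SNHG26 to 1.12 for SNHG4. SNHG4, which shares exon sequence with MATR3 on the same strand, had 3 and 4 counts in input, 15 and 5 in CyCoNP PD, with 0 in both LacZ PD libraries. Over the well-counted hosts, the ratio of CyCoNP PD to the input of the same number had a median of 1.04 in both replicates, and ran from 0.619 (SNHG7) to 2.03 (SNHG15) in replicate 1 and from 0.456 (SNHG14) to 1.77 (SNHG17) in replicate 2.

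**Figure D3:**
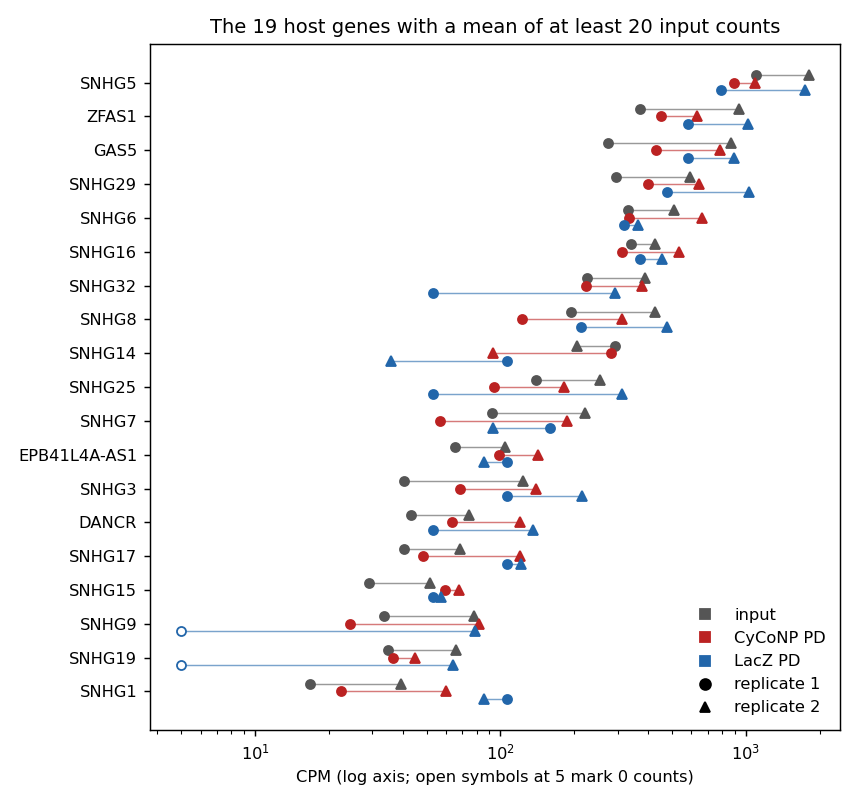
Level in CPM (x axis, log scale) of the 19 well-counted hosts (y axis, by total counts) in each library, with circles for replicate 1, triangles for replicate 2 and lines joining the replicates of a group. Triangles lie to the right of circles for 18 of 19 hosts in input and in CyCoNP PD, SNHG14 being the exception in both. The values in LacZ PD 1 rest on 0 to 15 counts.

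After the summed levels had been seen to follow the replicate number, that difference was tested as the replicate term of the edgeR fit with the block. Most hosts had higher levels in the libraries numbered 2, and a single host passed the test. This was SNHG9, the host of SNORA78, with a log2 difference of 1.65 (SE 0.52, adjusted p = 0.0356, edgeR), on counts of 24, 37 and 0 in the libraries numbered 1 and 62, 42 and 11 in those numbered 2. That is 1 of 27 tested hosts, against 0.812% of all genes called higher, and 0 hosts were called lower, against 4.46% of genes. An unadjusted p under 0.05 was reached by 14 of the 27 on the higher side, against 5.03% of genes. The log2 difference was above 0 for 25 of 27 hosts, against 48.2% of genes, and above 1 for 17 of 27, against 12.1%. The median was 1.13 over the hosts and -0.04 over all genes. These shares describe genes of one family in 3 pairs of libraries and are not independent of each other.

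SNHG8 (1.42, SE 0.47, adjusted p = 0.0501), SNHG3 (1.41, SE 0.47, adjusted p = 0.053), SNHG7 (1.34, SE 0.48, adjusted p = 0.0842) and GAS5 (1.33, SE 0.49, adjusted p = 0.0964) followed by p in edgeR. DESeq2, by contrast, called 0 lower of the 23 hosts with an adjusted p, against 222 of the 7693 genes with one (1.77% of all tested). It called 2 higher, against 41 of those genes (0.326%). These were GAS5 (1.36, adjusted p = 0.0105) and SNHG8 (1.43, adjusted p = 0.0111), while SNHG9 (1.75, adjusted p = 0.183) was not called. Over the 14 alternatives the adjusted p ran from 0.0226 to 0.53 for SNHG9, from 0.0105 to 1.00 for GAS5 and from 0.0111 to 0.747 for SNHG8. SNHG14 had the lowest value, -0.96 (SE 0.50, unadjusted p = 0.0527, adjusted p = 0.342, edgeR), and SNHG10 lay next, near 0. Leaving out the input pair or the CyCoNP PD pair left 0 hosts called, against 14 and 47 of 12565 genes called higher. An unadjusted p under 0.05 was reached on the higher side by 3 and 10 hosts, against 209 and 541 genes. The host medians were 1.09 and 1.30. Leaving out the LacZ PD pair left 2 called, against 127 genes, and a median of 0.96.

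The order of the libraries gave a similar picture without a model. CPM was higher in replicate 2 in all 3 groups for 18 of 27 tested hosts, against 13.9% of all tested genes. Every library numbered 2 was above every library numbered 1 for 14 of the 27, against 6.81% of genes: DANCR, GAS5, SNHG3, SNHG6, SNHG8, SNHG9, SNHG16, SNHG19, SNHG20, SNHG21, SNHG25, SNHG29, SNHG32 and ZFAS1. The reverse order was found for 0 hosts, against 7.35% of genes. Over the well-counted hosts, the ratio of replicate 2 to replicate 1 had a median of 1.82 in input (0.699 for SNHG14 to 3.17 for GAS5) and 1.83 in CyCoNP PD (0.332 for SNHG14 to 3.33 for SNHG9). In LacZ PD it had a median of 1.53 over the 17 hosts with counts in both libraries, and 13 of the 17 were above 1.

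**Figure D4:**
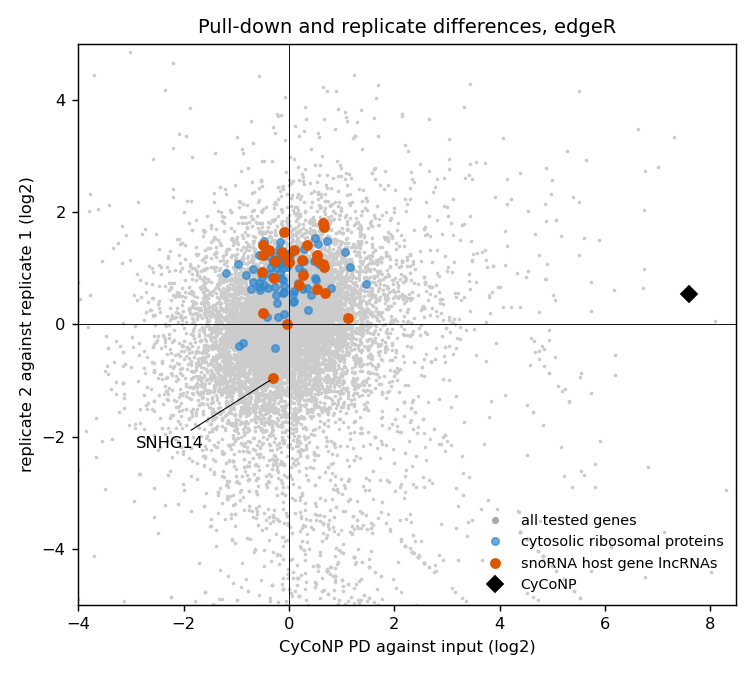
Log2 fold change in CyCoNP PD against input (x axis) and log2 difference of replicate 2 against replicate 1 (y axis) for each tested gene from edgeR, with hosts, ribosomal protein genes and CyCoNP marked; 394 genes lie outside the axes. The hosts spread around 0 on the x axis (median 0.09) and lie above 0 on the y axis in 25 of 27 cases (median 1.13), while CyCoNP lies at 7.59 on the x axis.

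The ribosomal protein mRNAs, the classic TOP mRNAs, were also mostly higher in replicate 2. Of 79 cytosolic ribosomal proteins, 76 were above 0 with a median of 0.92, and edgeR called RPSA (1.49, SE 0.48, adjusted p = 0.0414) and RPL29 (1.55, SE 0.50, adjusted p = 0.0401) higher and 0 lower. DESeq2 called 12 of the 79 higher. Their summed level was 132165 CPM in input 1, 130407 in CyCoNP PD 1 and 122682 in LacZ PD 1, and 201556, 152138 and 234357 CPM in the libraries numbered 2. The 24 other TOP mRNAs had a median of 0.36 with 17 above 0, EIF3F, a translation initiation factor subunit, being called higher (1.49, SE 0.49, adjusted p = 0.0443) and VIM, the intermediate filament vimentin, lower (-1.50, SE 0.47, adjusted p = 0.0296). The 820 other lncRNA genes tested had a median of 0.59 with 70.4% above 0 and the 10482 protein-coding genes a median of -0.02.

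The profile of the hosts was also compared with single genes. Over the 6 libraries, the 5 genes of 4400 whose centred log2 level lay nearest to the mean of the well-counted hosts were RPL12 (Euclidean distance 0.237), RPL10 (0.306), MRPS15 (0.368), NDUFB10 (0.381) and ATP5MC1 (0.39). The median distance of the hosts themselves was 1.12, and that of SNHG14 was 3.31. The 5 genes were picked as the smallest of 4400 distances, so their lying under the host median is no separate result. RPL12 and RPL10 are ribosomal proteins, MRPS15 belongs to the mitochondrial ribosome, and NDUFB10 and ATP5MC1 belong to the respiratory chain and the ATP synthase.

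The protein-coding genes that also host snoRNAs in their introns were centred slightly below 0. Of 32 outside the ribosomal proteins, 11 were above 0 with a median of -0.14, and EIF4G1, the scaffold of the cap-binding complex, was called lower (-1.67, SE 0.51, adjusted p = 0.024). The 19 tested proteins and assembly factors of the snoRNPs had a median of 0.15 with 12 above 0 and 0 called, 3 of them with an unadjusted p under 0.05, and DESeq2 called 0 as well. NHP2, a core protein of H/ACA particles, had the highest value of those with enough input counts (1.08, SE 0.48, adjusted p = 0.214) and NOLC1, a snoRNP chaperone, the lowest (-1.05, SE 0.51, adjusted p = 0.291). Among 21 factors of nonsense-mediated decay the median was 0.10 with 13 above 0, and ETF1, the translation release factor, was called lower (-2.42, SE 0.51, adjusted p = 0.000131). Of 8 nuclear-retained lncRNAs, 6 were above 0 with a median of 1.27, and MALAT1 was called higher (2.56, SE 0.59, adjusted p = 0.00068), with 912, 2405 and 25 counts in the libraries numbered 1 and 4933, 3331 and 1136 in those numbered 2.

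**Figure D5:**
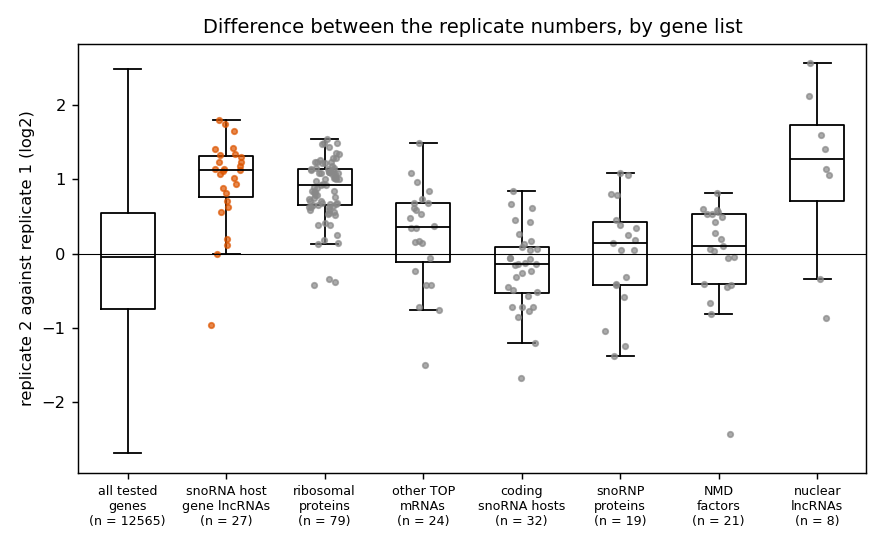
Log2 difference of replicate 2 against replicate 1 (y axis) from edgeR for all tested genes and for 7 gene lists (x axis), with medians, quartiles and whiskers to 1.5 times the quartile range, and a point for each listed gene. The hosts (median 1.13) and ribosomal proteins (0.92) lie mostly above 0, while the coding hosts (-0.14), snoRNP proteins (0.15) and decay factors (0.10) straddle it.

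Other measures moved with the replicate number as well. The 728 genes whose main transcript is under 500 bases had a median of -1.98 in replicate 2 against replicate 1, whereas the 5 tested hosts of that length had 1.14. From 500 to 1000 bases the medians were 0.25 for 1215 genes and 1.74 for 3 hosts, and from 1000 to 2000 bases 0.22 for 2323 genes and 1.12 for 9 hosts. From 2000 to 4000 bases they were -0.0128 for 3905 genes and 0.62 for 7 hosts, and from 4000 bases on -0.20 for 4357 genes and 1.13 for 3 hosts. The markers of other cell types summed to 315, 213 and 424 CPM in the libraries numbered 1 and 25.3, 36.9 and 21.4 CPM in those numbered 2. Of the 4 tested, edgeR called the collagens COL1A1 (-4.26, SE 0.59, adjusted p = 1.55e-10) and COL3A1 (-4.91, SE 0.78, adjusted p = 4.4e-08) lower in replicate 2. EPCAM, an epithelial marker, was called higher (adjusted p = 0.0253, edgeR, not called by DESeq2), with 0 counts in each library numbered 1 and 6, 6 and 2 in those numbered 2. The neuroblastoma markers summed to 4127 to 5299 CPM in the libraries numbered 1 and 4803 to 5203 CPM in those numbered 2, and CHGA alone among them was called, higher (1.68, SE 0.48, adjusted p = 0.0131). Their part in the difference of the hosts was not tested, and no source says what else the number stands for.

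In the CyCoNP pull-down, none of these gene lists held a call by edgeR, against 0.127% of all genes in either direction. Their medians were 0.09 for the snoRNP proteins, 0.40 for the decay factors, 0.07 for the coding hosts, 0.44 for the other TOP mRNAs, -0.15 for the ribosomal proteins and 0.36 for the nuclear lncRNAs. An unadjusted p under 0.05 was reached by 3 of the other TOP mRNAs on the higher side and on the lower side by 1 gene, DKC1, which is in the lists of snoRNP proteins and of coding hosts. EIF3H, a subunit of initiation factor 3, measured 117 and 134 CPM in input, 400.1 and 414 in CyCoNP PD, with 371 and 228 in LacZ PD on 7 and 32 counts, so that both pull-downs lay above both inputs. Its log2 fold change was 1.75 (SE 0.60, adjusted p = 0.577, edgeR), and it was called with DESeq2 and with the replicate block in edgeR. DKC1, the pseudouridine synthase of H/ACA particles, measured 737 and 1155 CPM in input, 341 and 392 in CyCoNP PD, with 212 and 157 in LacZ PD, so that both pull-downs lay below both inputs. Its log2 fold change in CyCoNP PD was -1.33 (SE 0.61, adjusted p = 0.916, edgeR).

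Several hosts share exon sequence with a neighbouring gene, and reads of both could be divided between them. SNHG8 overlaps PRSS12 over 40.3% of its main transcript on the opposite strand, with 253 counts for PRSS12, and SNHG7 overlaps DIPK1B over 46.4%, with 42 counts. SNHG20 shares 42.2% with SEC14L1 on the same strand, which had 106 counts. The counts of these 3 hosts are therefore uncertain to that extent.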

How the data were processed

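Per the labels and the study's methods, PCR-amplified cDNA of SK-N-BE RNA was sequenced on a Nanopore flow cell. The authors filtered reads by quality and length, aligned them to GRCh38 with minimap2 2.24-r1122 and counted them with Bambu over Ensembl genes, without new isoforms. They deposited whole-number counts per gene, used here, and the deposited CPM, which served only to check the counts. Whether counting used strand is not given in the sources used here. The columns matched the 6 libraries by name.

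Symbols, transcripts and positions were taken from GENCODE v44 and promoters and microRNAs from RefSeq (GRCh38.p14). Genes with at least 10 counts in total (12565) were fitted with edgeR 4.0.16 (R 4.3.3), TMM normalization, the quasi-likelihood test and all 6 libraries in a single fit, and p-values were adjusted over all 12565. The TMM factor of LacZ PD 1 was 1.70 and the others were 0.832 to 1.01. Standard errors were derived from the F statistic. Alternatives were DESeq2 1.42.0, its size factors, library size alone, other filters, only the groups compared, the replicate block and leaving out each library. The procedure was tested on simulated counts.

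Deviations from the group means correlated between same-numbered libraries at 0.445, 0.237 and 0.237 over 12565 genes, although no source says what a number marks. The pull-down comparisons were fitted without the number, and with it as a block as an alternative. The comparison of replicate 2 with replicate 1 used the fit with the block. With 2 libraries a group the deviations mirror each other. Replicates differed by more than counting noise (chi-square per degree of freedom 18.4, 14.3 and 4.11 in input, CyCoNP PD and LacZ PD). The hosts and gene lists were chosen with earlier results of these data known, and the comparison of replicate 2 with replicate 1 was added after the data were seen. Library values are given for hosts with a mean of at least 20 counts in input. Of each list the genes named are those called by edgeR and the 2 highest and 2 lowest with that mean, or examples of these. The markers of other cell types named are those with 0 counts and those called, and PRSS12, DIPK1B and SEC14L1 are named for their overlap. A further overlap is not reported here.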

Additional observations from a re-analysis of the deposited data

How the results depend on the processing

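With 2 libraries a group and 81 host counts in LacZ PD 1, the depth of the control limits every LacZ comparison, and a change of a single host by less than its interval was not detectable. In the pull-down comparisons 0 hosts were called under the alternatives that kept 2 libraries in each group. In CyCoNP PD against input, the fit of only the groups compared called 0 of 12565 genes, so CyCoNP itself was not called. Other such alternatives called 6 (library size alone) to 192 (block in edgeR) genes higher there. In both LacZ comparisons, size factors after DESeq2 and filterByExpr called 0 genes. DESeq2 gave no adjusted p to 8 of the 27 hosts in each CyCoNP comparison and to 15 in LacZ PD against input. With the block it gave none to 8 in CyCoNP PD against input and 12 in both LacZ comparisons. Taking the replicate number as a block, since same-numbered libraries deviated together, moved the median of the hosts in CyCoNP PD against input from 0.09 to 0.26 and changed no call of a host. Leaving out each library in turn gave medians of -0.30 to 0.77 in that comparison, -1.74 to 0.44 in LacZ PD against input and -0.36 to 1.87 in CyCoNP PD against LacZ PD. In CyCoNP PD against input the extremes came without input 1 and without input 2, in LacZ PD against input without LacZ PD 2 and without input 2, and in CyCoNP PD against LacZ PD without CyCoNP PD 2 and without LacZ PD 2. A library left alone in its group was assumed to vary like the other groups.

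For replicate 2 against replicate 1, 1 host was called in the edgeR fit with the block. With size factors after DESeq2 and with library size alone 3 were called each, against 109 and 111 of 12565 genes called higher. DESeq2 called 2, against 41 of the 7693 genes with an adjusted p. Without a count filter 0 of 29 hosts were called, against 63 of 22293 genes, and with filterByExpr 4 of 21, against 120 of 7035. Without the input, CyCoNP PD or LacZ PD pair, 0, 0 and 2 were called, against 14, 47 and 127 of 12565 genes. The cause of these moves was not tested. The median stayed between 0.94 and 1.30. Without SNHG5 the summed level was 2903, 5539, 3191, 5302 and 5924 CPM in input 1, input 2, CyCoNP PD 1, CyCoNP PD 2 and LacZ PD 2. Without SNHG14 it was 3705 and 7143 CPM in the inputs and 3803 CPM in CyCoNP PD 1.

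No log2 fold change of a well-counted host was called in a pull-down comparison, and 106 of its values changed sign, 72 of them on leaving out a library. In CyCoNP PD against input, SNHG32 was 0.0129 with filterByExpr and 0.0583 with the replicate block. In LacZ PD against input, library size alone gave 0.14 for SNHG16, 0.33 for ZFAS1, 0.10 for EPB41L4A-AS1, 0.40 for GAS5, 0.0762 for SNHG9, 0.15 for SNHG25 and 0.26 for SNHG8. There ZFAS1 was 0.0072 with size factors after DESeq2 and 0.0060 with DESeq2 itself, SNHG15 was -0.0502 without a filter and -0.013 with only the groups compared, and GAS5 was 0.0546 and 0.049 with those size factors and with DESeq2, 0.0385 with filterByExpr and 0.0857 with the block in DESeq2. In CyCoNP PD against LacZ PD, the replicate block in edgeR gave 0.0425 for SNHG29, 0.0649 for ZFAS1 and 0.0785 for SNHG17, which was 0.0481 without a filter. SNHG5, DANCR and SNHG19 were -0.13, -0.0314 and -0.0899 with size factors after DESeq2 and -0.13, -0.0072 and -0.0228 with DESeq2, while SNHG5 and SNHG19 were -0.0598 and -0.0208 with filterByExpr. Library size alone gave -0.39 for SNHG5, -0.27 for DANCR, -0.32 for GAS5, -0.19 for SNHG9 and -0.29 for SNHG19.

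On leaving out each library in CyCoNP PD against input, SNHG16 ran from -0.20 to 0.52, SNHG29 from -0.22 to 0.96, ZFAS1 from -0.83 to 0.70, SNHG17 from -0.10 to 1.18, SNHG5 from -0.90 to 0.0125, SNHG32 from -0.41 to 0.57, SNHG14 from -1.35 to 0.29, SNHG7 from -1.40 to 0.53, GAS5 from -0.56 to 1.29, SNHG3 from -0.30 to 1.49, SNHG6 from -0.26 to 0.73, SNHG9 from -1.13 to 0.77, SNHG1 from -0.25 to 1.40, SNHG19 from -0.73 to 0.36, SNHG25 from -0.99 to 0.12 and SNHG8 from -1.27 to 0.30. In LacZ PD against input, SNHG16 ran from -1.22 to 0.0503, SNHG29 from -1.08 to 1.14, ZFAS1 from -1.37 to 0.87, SNHG17 from -0.22 to 1.25, SNHG5 from -2.05 to 0.0519, EPB41L4A-AS1 from -0.86 to 0.19, DANCR from -1.33 to 1.12, SNHG15 from -0.79 to 0.69, GAS5 from -1.18 to 1.16, SNHG3 from -0.83 to 1.87, SNHG9 from -8.31 to 0.63, SNHG19 from -8.15 to 0.31, SNHG25 from -3.07 to 0.45 and SNHG8 from -1.74 to 0.68. In CyCoNP PD against LacZ PD, SNHG29 ran from -0.75 to 1.35, ZFAS1 from -0.67 to 1.12, SNHG17 from -0.79 to 0.88, SNHG5 from -0.57 to 1.55, DANCR from -0.36 to 2.0, SNHG7 from -0.45 to 1.23, GAS5 from -0.32 to 1.28, SNHG3 from -0.91 to 1.19, SNHG9 from -0.88 to 8.23, SNHG19 from -0.42 to 7.88, SNHG25 from -0.96 to 2.58 and SNHG8 from -1.13 to 1.25. The extremes of SNHG9 and SNHG19 set LacZ PD 1, with 0 counts, against the other groups and are no measure of size.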

Other observations

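The count table also has 942 rows for snoRNA genes themselves. Together they took 182 and 200 CPM in input, 240 and 140 CPM in CyCoNP PD, and 106 and 178 CPM in LacZ PD, on 2 to 363 counts a library. These sums did not follow the replicate number as those of the host lncRNAs did, since CyCoNP PD 1 was above CyCoNP PD 2. Only 2 (LacZ PD 1) to 38 (input 2) of the 942 rows had counts. The authors removed short reads, so the sums may miss much of the snoRNAs themselves and are no measure of their level. The spread between replicates was also wider for the hosts in each group than for all genes with enough input counts, hosts included. With 2 libraries a group, this spread rests on the difference between the replicates without its sign. It is therefore no result apart from that difference. The median SD of the log2 level was 0.74 in input, 0.59 in CyCoNP PD and 1.1 in LacZ PD over the 19 well-counted hosts, and 0.45, 0.34 and 1.00 over the 4400 tested genes with the same minimum of input counts.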
